A study of Mus musculus with 25 samples.

Results

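The Hox genes encode homeodomain transcription factors and lie in 4 clusters. In mouse these are HoxA on chromosome 6, HoxB on chromosome 11, HoxC on chromosome 15 and HoxD on chromosome 2. All rows with a symbol made of Hox, a cluster letter from a to d and a number were taken, which gave 39 genes of 53070 rows in the larger count table, and the same 39 genes of 55304 rows in the smaller one. HoxA held 11 of them, HoxB 10, HoxC 9 and HoxD 9. The rule used symbols and no measured value, but it was set with earlier results of these data known.

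RNA sequencing libraries came from 25 mouse mammary tumours, and the study asked how loss of chromatin regulators and tumour suppressors alters tumours with an activated Pik3ca allele. Every mouse carried LSL-Pik3caH1047R and LSL-Cas9-EGFP, which Cre switches on by removing a stop cassette, and every tumour was digested with collagenase and trypsin before live green cells (GFP+, DAPI-) were sorted for RNA. Kdm6a fl/fl mice (3 tumours), whose Kdm6a alleles are flanked by loxP sites so that Cre can delete them, and mice without that allele (3 tumours), all of Mixed C57BL/6 x FVB/N background, received Adenoviral Krt5-Cre, in which Cre is driven by the promoter of the basal keratin Krt5. The other 19 tumours, in F1 C57BL/6 x FVB/N mice, were started by lentiviral Cre carrying a guide RNA against Asxl2 (2 tumours), Kdm6a (2), Kmt2c (3), Setd2 (2), Apc (4) or Trp53 (4), or a non-targeting guide (2). The labels do not say whether Cas9 was active in the tumours without a guide, nor whether tumours of a group came from separate mice, so p-values measure only the spread between these libraries, which may be technical.

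The count columns are headed by running numbers and no sample label holds these numbers. Reading a number as the place of a sample in the list of records would tie each column to a guide or genotype by record order alone, and this was not done. The study's design text gives numbers 1 to 19 to the CRISPR experiment and 20 to 25 to the Cre-lox experiment, and only Kdm6a fl/fl samples name the smaller table, which holds numbers 23 and 24. Hence 3 groups were used: Kdm6a fl/fl (libraries 23 and 24), Krt5-Cre (libraries 20, 21, 22 and 25, a mix of 3 tumours without the Kdm6a allele and 1 Kdm6a fl/fl tumour that were not told apart) and lentiviral (libraries 1 to 19, all 7 guides together). The levels over the 9 labelled groups were not analysed here.

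Hox proteins set position along the body axis, and the order of the genes in a cluster follows the order of the body regions they pattern. Low paralog numbers act towards the head and high numbers towards the tail and limb ends. Polycomb complexes keep the clusters silent where they are not used, Trithorax complexes keep them active, and Pbx, Meis and Pknox proteins bind DNA together with Hox proteins. In the mouse mammary gland, Hoxa9, Hoxb9 and Hoxd9 are jointly needed for growth of the gland in pregnancy, and Hoxc8 can start mammary placodes outside their normal line.

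The promoters of 3 genes are shown because of where their genes stood. Hoxb4 had the highest median level, Hoxd8 was far higher in 1 Krt5-Cre library than in the others of that group, and Hoxa11 had no count. Each window holds 250 bases before and 50 bases after the RefSeq start on GRCm38.p6, read along the gene's strand, and capitals mark CG dinucleotides, the usual sites of DNA methylation. Hoxb4 is read from chr11:96318017-96318316 on the plus strand, Hoxd8 from chr2:74704365-74704664 on the plus strand and Hoxa11 from chr6:52245761-52246060 on the minus strand.
Hoxb4: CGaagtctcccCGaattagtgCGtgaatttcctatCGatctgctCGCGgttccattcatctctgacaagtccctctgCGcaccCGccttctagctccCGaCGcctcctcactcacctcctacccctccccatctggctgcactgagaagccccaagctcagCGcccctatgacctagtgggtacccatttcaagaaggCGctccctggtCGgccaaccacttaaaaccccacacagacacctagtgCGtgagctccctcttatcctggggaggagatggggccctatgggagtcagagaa
Hoxd8: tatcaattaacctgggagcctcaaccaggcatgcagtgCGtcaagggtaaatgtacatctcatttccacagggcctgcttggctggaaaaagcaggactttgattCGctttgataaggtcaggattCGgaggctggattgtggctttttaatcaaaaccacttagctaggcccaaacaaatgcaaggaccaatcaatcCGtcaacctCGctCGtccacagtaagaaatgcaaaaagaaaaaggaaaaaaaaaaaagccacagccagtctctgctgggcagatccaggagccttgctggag
Hoxa11: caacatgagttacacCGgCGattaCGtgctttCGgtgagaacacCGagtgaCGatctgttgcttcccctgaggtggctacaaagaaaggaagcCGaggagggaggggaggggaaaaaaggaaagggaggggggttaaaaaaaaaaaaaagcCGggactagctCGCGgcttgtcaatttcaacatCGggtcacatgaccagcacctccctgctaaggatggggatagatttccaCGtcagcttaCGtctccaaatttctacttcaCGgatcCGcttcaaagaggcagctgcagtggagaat
The windows held 14, 6 and 15 CG dinucleotides in Hoxb4, Hoxd8 and Hoxa11, so the gene without a count had about as many as the one with the highest level. Of the 39 genes, 22 matched a RefSeq promoter, with a median of 13.5 CG dinucleotides (range 4 to 45), against 7 over all 27025 promoters. The TATA box letters TATAAA, searched on both strands, were in 3 of the 22 Hox promoters (13.6%) and in 14.2% of all promoters. DNA methylation was not measured, and these counts describe letters only.

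Library totals ran from 7733478 to 43673097 counts. Levels are given as CPM, the count scaled to a common library total, or as TPM, which also divides by exon length. Single genes are set against each other as TPM, and CPM sums over several genes are shares of counts in which long genes weigh more. A count of 0 allows up to 3 counts, which is 0.0687 to 0.388 CPM in these libraries, for counting error only. Library 13, of the lentiviral group, stood apart: 12757 genes had a count, against 19926 to 23264 in the other libraries, and its 10 most abundant genes took 17.9% of its counts. Library 21, of the Krt5-Cre group, had the highest summed immune markers (13702 CPM over 8 genes) and the lowest summed basal markers (410 CPM over 5 genes). Of the immune markers, Lyz2, Csf1r, C1qa and Adgre1 had 4465, 3703, 2344 and 1318 CPM there. Cd3e and Cd79a had only 0.142 and 0.237 CPM. Of the basal markers, Krt5 and Krt14 had 118 and 32.7 CPM, against lentiviral minima of 235 and 295 CPM. Acta2, at 223 CPM, was inside the lentiviral range of 29.7 to 3249 CPM. The median correlation of library 21 with the other libraries, of log2 levels across genes, was the lowest, at 0.549. No 2 libraries of a group agreed within sampling noise, and the closest lentiviral pairs were 3 and 4, 10 and 11, and 14 and 15, with correlations of log2 levels across genes of 0.985, 0.982 and 0.992 and a chi-square over its degrees of freedom of 12.8, 15.1 and 15.8, against 47.3 in the next lentiviral pair. The 2 Kdm6a fl/fl libraries were similarly close, with a correlation of 0.980 and a chi-square over its degrees of freedom of 17.8. Whether a pair shares a mouse is not known here. Kdm6a itself measured 59.9 and 60.2 CPM in the Kdm6a fl/fl libraries, 83.7 to 137.5 CPM in the Krt5-Cre libraries and 35.9 to 96.8 CPM in the lentiviral libraries. This whole-gene count does not separate the exons that Cre removes from the rest.

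Most Hox genes were at or near the detection limit in these tumours. Of the 39, 3 (Hoxa11, Hoxa13 and Hoxd12) had no count in any of the 25 libraries, which over 549386087 counts allows up to 0.00546 CPM. Another 18 had a count but never reached 1 CPM, and 18 reached 1 CPM in at least 1 library, namely 6 of HoxB, 8 of HoxC, 3 of HoxD and 1 of HoxA. Only 5 genes reached 1 CPM in 13 or more libraries: Hoxb4 in 23, Hoxb3 in 21, Hoxb2 in 16, Hoxc5 in 14 and Hoxc4 in 13. Thinning every library to the lowest total left 4 such genes, and a limit of 0.5 CPM gave 7. Hoxb4, Hoxc4 and Hoxc13 were the only genes above 10 CPM in any library.

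**Figure D1:**
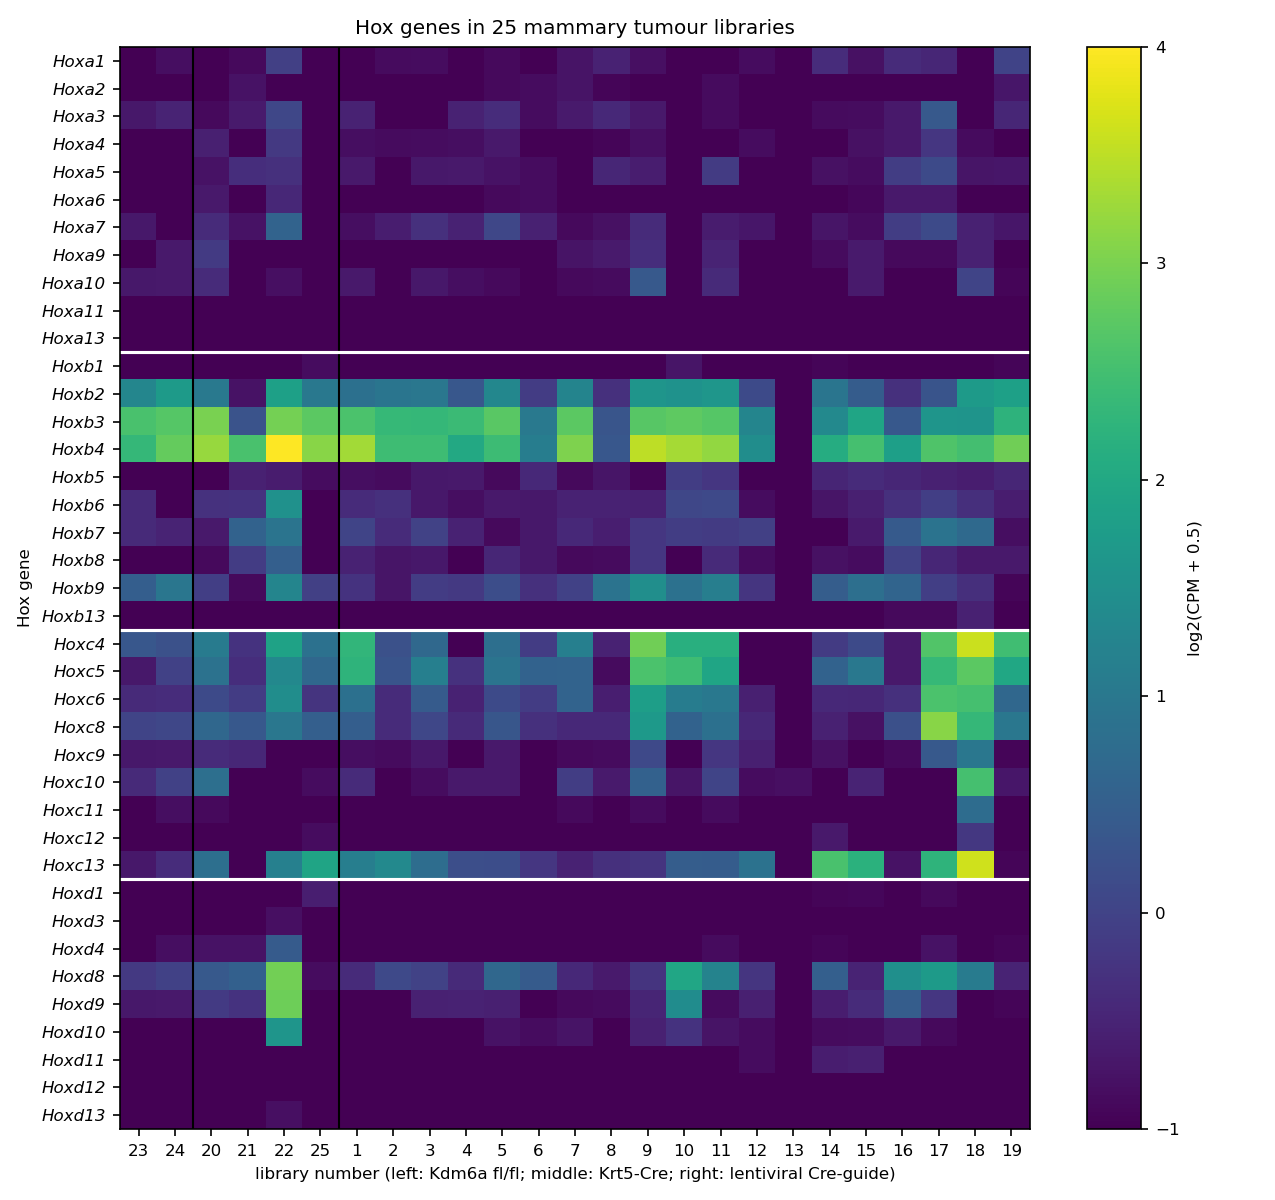
Level of each of the 39 Hox genes (rows, by cluster and number) in each of 25 libraries (columns: Kdm6a fl/fl, Krt5-Cre, lentiviral), coloured by log2(CPM + 0.5); the darkest colour is a count of 0. Hoxb2, Hoxb3 and Hoxb4 form a bright band across most libraries, and library 13 is dark throughout.

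Summed over the 39 genes, the level was 16.4 and 21.2 CPM in the 2 Kdm6a fl/fl libraries. The Krt5-Cre libraries had 29.1 CPM in library 20, 12.3 in library 21, 63.8 in library 22 and 23.6 in library 25. Lentiviral libraries had 0.0784 CPM in library 13, which held 1 Hox count, and otherwise 6.08 (library 8) to 63.3 CPM (library 18), with a median of 19.5 CPM over all 19. The 3 groups overlapped, and the spread within the lentiviral group was wider than that between the group medians. In bulk samples such as these, fewer cells of a type and less RNA per cell cannot be told apart.

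Per length, HoxB had the highest summed level of the 4 clusters in 21 of the 24 libraries other than library 13, and HoxC in the other 3 (libraries 14, 17 and 18). In TPM, HoxB made up 77.9% of the summed Hox level at the median of the Kdm6a fl/fl libraries, against 62.3% in Krt5-Cre and 54.2% in lentiviral libraries. HoxC made up 16.5%, 22.9% and 32.3% in the same order, while the medians of HoxA and HoxD stayed between 1.91% and 7.91%. On the CPM scale, the median HoxB sum was 15.1 CPM in Kdm6a fl/fl, 17.6 CPM in Krt5-Cre and 11.8 CPM in lentiviral libraries. The HoxC medians were 2.58, 7.27 and 5.65 CPM in the same order. HoxA medians were 0.469, 1.03 and 0.672 CPM, and HoxD medians 0.602, 1.34 and 0.730 CPM. The Kdm6a fl/fl libraries come from a separate table, so table and genotype cannot be told apart and no test was made of them.

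**Figure D2:**
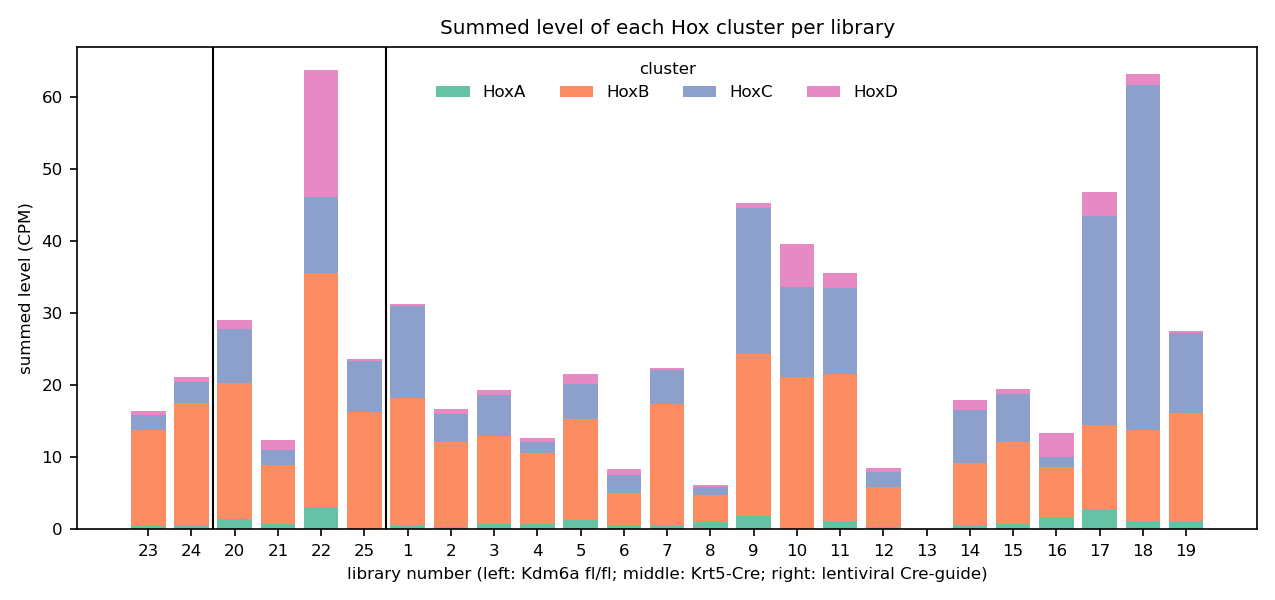
Stacked bars give the summed CPM of the HoxA, HoxB, HoxC and HoxD genes in each library, with Kdm6a fl/fl at the left, Krt5-Cre in the middle and lentiviral at the right. On this scale HoxB is the largest block in 22 of the 24 bars other than library 13, HoxC is largest in libraries 17 and 18, and library 22 has the largest HoxD block, 17.6 CPM.

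Grouped by position in the cluster, the 15 genes of paralog groups 4 to 8, which pattern the neck and trunk, took 44.1%, 57.5% and 57.3% of Hox counts at the median of the Kdm6a fl/fl, Krt5-Cre and lentiviral libraries. Their median sum, like these shares not corrected for length, was 8.29 CPM in Kdm6a fl/fl, 13.8 CPM in Krt5-Cre and 11.05 CPM in lentiviral libraries. In the Kdm6a fl/fl libraries the 8 genes of groups 1 to 3 took the same median share, 44.1%. Their sums had medians of 8.25, 8.44 and 5.77 CPM in the same order, where Hoxb2 and Hoxb3 were the only members to reach 1 CPM. The 16 genes of groups 9 to 13 had medians of 2.25, 4.11 and 2.22 CPM, and their highest sum was 21.4 CPM, in lentiviral library 18.

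Hoxb4, known for expanding blood stem cells when overexpressed, was the most abundant Hox gene of these tumours. It lies at chr11:96318267-96321638 on the plus strand, with 2566 exonic bases and no annotated exon overlap with another gene. It had 4.53 and 6.59 CPM in the Kdm6a fl/fl libraries. In the Krt5-Cre libraries it had 8.93 CPM in library 20, 5.40 in library 21, 15.4 in library 22 and 8.09 in library 25. In the lentiviral libraries it was at 0 in library 13 (limit 0.235 CPM) and at 0.773 CPM in the next lowest, library 8, with a median of 4.97 CPM and a highest value of 10.8 CPM in library 9. All 4 Krt5-Cre values lay above the lentiviral median, and 1 of them lay above the lentiviral maximum. Per length, Hoxb4 was the highest Hox gene in 2 of 2 Kdm6a fl/fl, 4 of 4 Krt5-Cre and 14 of 18 lentiviral libraries other than library 13. The exceptions were Hoxb9 in library 8, Hoxc13 in libraries 14 and 18, and Hoxc8 in library 17. Its median over all 25 libraries was 6.86 TPM.

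Hoxb3 and Hoxb2, which pattern the hindbrain in the mouse embryo, followed Hoxb4 in the HoxB cluster. Hoxb3 (chr11:96323326-96347930) had 5.43 and 5.91 CPM in Kdm6a fl/fl libraries, and 7.44, 0.711, 7.26 and 6.14 CPM in Krt5-Cre libraries 20, 21, 22 and 25. The lentiviral libraries had a median of 4.21 CPM, no count in library 13, 0.746 CPM in library 8 and a maximum of 6.27 CPM in library 10. Library 21 was low for Hoxb3 although it was within the range of the other libraries for Hoxb4. Hoxb2 (chr11:96350525-96354012) had 1.94 and 2.82 CPM in Kdm6a fl/fl libraries and 1.53, 0.0947, 3.09 and 1.49 CPM in the same 4 Krt5-Cre libraries, against a lentiviral median of 1.41 and maximum of 3.07 CPM. Of the exonic bases, 52.9% of Hoxb3 and 27.3% of Hoxb2 are shared with the antisense gene Hoxb3os. Whether counting used strand is not stated, so the levels of these 2 genes are uncertain.

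Hoxb9, of the trio needed in the mammary gland of pregnant mice, had 0.905 and 1.44 CPM in Kdm6a fl/fl libraries and 0.451, 0.0474, 1.93 and 0.459 CPM in Krt5-Cre libraries 20, 21, 22 and 25. The lentiviral median was 0.457 CPM and the highest value 2.27 CPM, in library 9. Both Kdm6a fl/fl values were thus above the lentiviral median and inside its range. Hoxb7 and Hoxb6 were below 1 CPM in most libraries. Hoxb7, a gene studied in human breast cancer, had 0.259 and 0.206 CPM in Kdm6a fl/fl libraries, 0.135, 0.995, 1.39 and 0 CPM in Krt5-Cre libraries and a median of 0.262 CPM (maximum 1.37) in lentiviral libraries. Hoxb6 had 0.259 and 0 CPM in Kdm6a fl/fl libraries and 0.316, 0.332, 2.39 and 0 CPM in Krt5-Cre libraries, against a lentiviral median of 0.185 and maximum of 0.568 CPM. Library 22 gave the highest Krt5-Cre value of all 3. The remaining HoxB genes, Hoxb1, Hoxb5, Hoxb8 and Hoxb13, stayed at or below 0.927 CPM in every library.

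**Figure D3:**
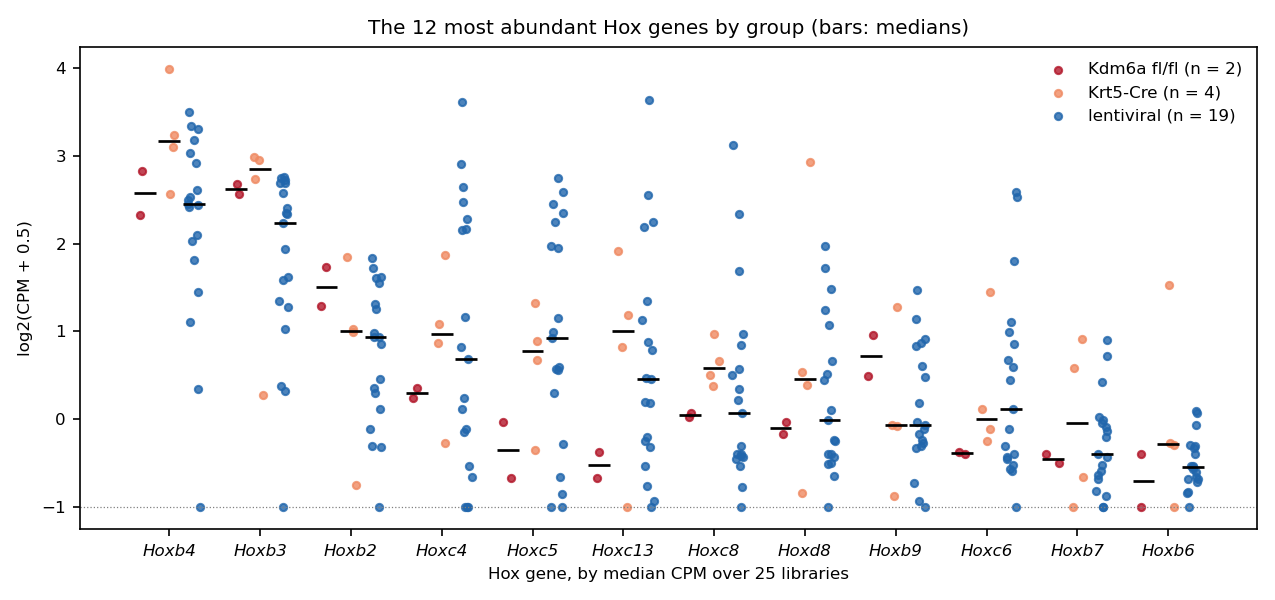
Points are libraries and bars are medians, as log2(CPM + 0.5), for the 12 Hox genes with the highest median CPM; colours give Kdm6a fl/fl (n = 2), Krt5-Cre (n = 4) and lentiviral (n = 19), in that order for each gene. The dotted line marks a count of 0. Kdm6a fl/fl and Krt5-Cre each overlap the lentiviral group for every gene shown, but do not overlap each other for Hoxc6 and Hoxc8. For Hoxb4, Hoxd8 and Hoxb6, 1 Krt5-Cre point each, library 22, stands above the lentiviral points.

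Several HoxC genes varied widely among the lentiviral libraries. Hoxc13, a regulator of hair and nail keratins, had the widest lentiviral range on the log2(CPM + 0.5) scale, 4.63, against 4.61 for Hoxc4. Without library 13 the order of the 2 turned, with 4.57 for Hoxc13 and 4.61 for Hoxc4. It had 0.129 and 0.275 CPM in Kdm6a fl/fl libraries and 1.26, 0, 1.78 and 3.27 CPM in Krt5-Cre libraries 20, 21, 22 and 25. The lentiviral libraries had a median of 0.878 CPM, no count in library 13, 0.0229 CPM in library 19 and a maximum of 11.9 CPM in library 18. The next highest lentiviral values were 5.38 CPM in library 14, 4.25 in library 17 and 4.06 in library 15. These 4 libraries were the only ones of the 19 above 4 CPM, and libraries 14 and 15 are one of the closest pairs.

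Hoxc4, the paralog of Hoxb4 in its cluster, had 0.776 and 0.687 CPM in Kdm6a fl/fl libraries and 1.62, 0.332, 3.17 and 1.32 CPM in the Krt5-Cre libraries. It was at 0 in lentiviral libraries 4, 12 and 13, had a lentiviral median of 1.10 CPM and reached 11.7 CPM in library 18. Hoxc5 had 0.129 and 0.481 CPM in Kdm6a fl/fl libraries and 1.35, 0.284, 2.01 and 1.09 CPM in Krt5-Cre libraries, against a lentiviral median of 1.40 and maximum of 6.19 CPM, also in library 18. The Kdm6a fl/fl values of both genes were below their lentiviral medians but inside the lentiviral range. Hoxc5 and Hoxc10 share 166 exonic bases on the same strand, 5.37% of Hoxc5 and 8.70% of Hoxc10.

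Hoxc6 and Hoxc8, which pattern the thorax, had their highest values in another library, for Hoxc6 only by a narrow margin. Hoxc8 had 0.517 and 0.549 CPM in Kdm6a fl/fl libraries and 1.08, 0.805, 1.47 and 0.918 CPM in Krt5-Cre libraries, against a lentiviral median of 0.552 and a maximum of 8.19 CPM in library 17. Hoxc6 had 0.259 and 0.275 CPM in Kdm6a fl/fl libraries and 0.587, 0.426, 2.24 and 0.344 CPM in Krt5-Cre libraries, against a lentiviral median of 0.589 and a maximum of 5.49 CPM in library 17. Library 18 came next for both, at 4.55 CPM of Hoxc8 and 5.26 CPM of Hoxc6. Hoxc10, Hoxc11 and Hoxc12, chosen after their values were seen, had 5.23, 1.20 and 0.382 CPM in library 18 and no count in library 17, while Hoxc9 had 1.47 CPM in library 18 and 0.823 CPM in library 17. In the other lentiviral libraries Hoxc10 reached at most 0.976 CPM (library 9). In the Kdm6a fl/fl libraries Hoxc10 had 0.259 and 0.481 CPM, and in the Krt5-Cre libraries 1.26, 0, 0 and 0.0574 CPM.

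**Figure D4:**
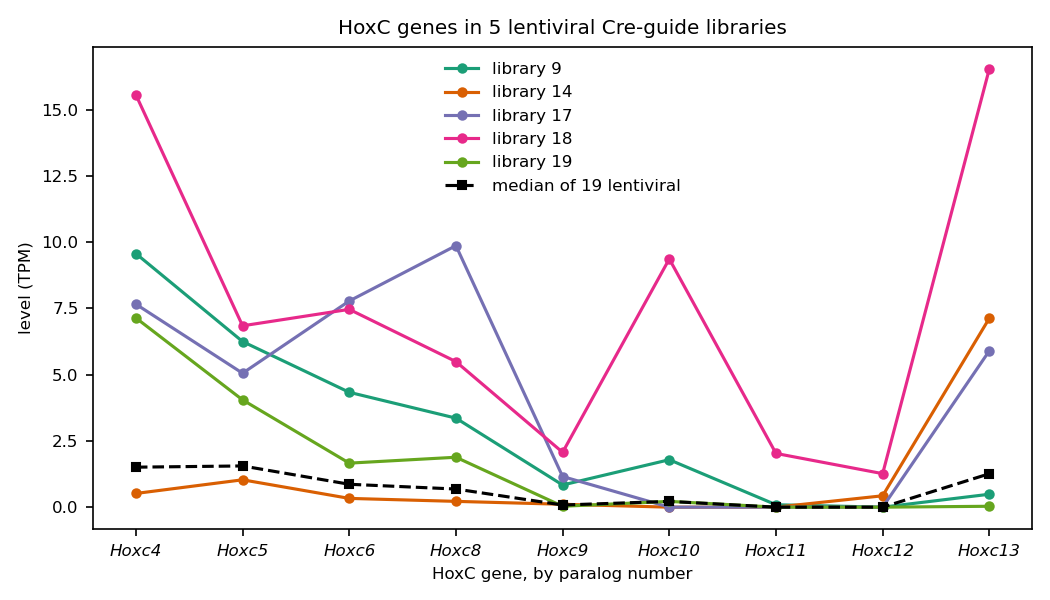
Level (TPM) of the 9 HoxC genes, ordered by number, in 5 lentiviral libraries chosen after their values were seen, with the median of all 19 lentiviral libraries as a dashed black line. Library 18 is above the median at every HoxC gene, library 17 is high from Hoxc4 to Hoxc8 and at Hoxc13, library 14 is high at Hoxc13 alone, and library 19 is high at Hoxc4 and near 0 at Hoxc13.

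Genes used as markers of other cell types also differed among these libraries. The 10 fibroblast markers summed to 9689 and 17013 CPM in Kdm6a fl/fl libraries, 2795 to 17726 CPM in Krt5-Cre libraries and 2023 to 79927 CPM in lentiviral libraries, where library 18 held 61021 CPM and library 17 held 32175 CPM. Libraries 16 and 19 had higher fibroblast sums than library 18, at 79927 and 78134 CPM, and HoxC sums of 1.38 and 11.2 CPM, against 47.9 CPM in library 18. The 8 immune markers summed to 824 and 966 CPM in Kdm6a fl/fl, 38.4 to 13702 CPM in Krt5-Cre and 31.2 to 8084 CPM in lentiviral libraries, where library 18 held 60.1 CPM and library 17 held 4278 CPM. The 4 adipocyte markers summed to 12.2 and 16.8 CPM in Kdm6a fl/fl libraries and 10.6 to 38.0 CPM in Krt5-Cre libraries. In lentiviral libraries they summed to 12.6 to 520 CPM, with the maximum in library 18. Fabp4 alone held 512 CPM there, while Adipoq, Plin1 and Lipe had 0.0545, 0.0273 and 8.62 CPM. Adipoq was at 0 in 2 of 2, 2 of 4 and 14 of 19 libraries of the 3 groups. Which cells held this RNA, tumour cells or others, and their part in the HoxC levels was not tested.

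HoxD genes had their highest sum in 1 Krt5-Cre library. Hoxd8, a trunk gene at chr2:74704615-74707933 whose promoter is printed above, had 0.388 and 0.481 CPM in Kdm6a fl/fl libraries. In the Krt5-Cre libraries it had 0.812 CPM in library 20, 0.947 in library 21, 7.11 in library 22 and 0.0574 in library 25. Its lentiviral median was 0.491 CPM and its highest lentiviral value 3.41 CPM, in library 10, and it reached 1 CPM in 6 of the 19 lentiviral libraries. Hoxd9 and Hoxd10, limb and tail patterning genes chosen after their values were seen, were highest in the same libraries. Hoxd9 had 0.129 and 0.137 CPM in Kdm6a fl/fl libraries, 0.406, 0.332, 6.95 and 0 CPM in Krt5-Cre libraries and at most 2.20 CPM, in library 10, among lentiviral libraries. Hoxd10 had no count in the Kdm6a fl/fl libraries, 2.55 CPM in library 22 with no count in the other 3 Krt5-Cre libraries, and at most 0.330 CPM in lentiviral library 10. Summed HoxD was 17.6 CPM in library 22, against 0.230 to 1.37 CPM in the other Krt5-Cre libraries and at most 5.94 CPM, in library 10, among lentiviral libraries. As a share of Hox counts, HoxD took 27.6% in library 22 and 24.9% in lentiviral library 16. The 5 endothelial markers summed to 33.1 and 38.5 CPM in Kdm6a fl/fl libraries and 22.5 to 48.8 CPM in Krt5-Cre libraries 20, 21 and 25. They summed to 337 CPM in library 22 and 18.7 to 228 CPM in lentiviral libraries. Which cells held this RNA and their part in the HoxD level was not tested.

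HoxA had the fewest genes at 1 CPM. Hoxa7 alone reached 1 CPM, and only just, with 1.00 CPM (13 counts) in Krt5-Cre library 22, and 8 others had counts but stayed below that level. Their highest values were 0.823 CPM of Hoxa3 in lentiviral library 17 and 0.818 CPM of Hoxa10 in lentiviral library 9. Hoxa9, the HoxA member of the trio needed in the mammary gland of pregnant mice, had 0 and 0.137 CPM in Kdm6a fl/fl libraries, 0.406, 0, 0 and 0 CPM in Krt5-Cre libraries and at most 0.290 CPM in lentiviral libraries. At these depths a value of 0 allows 0.142 to 0.232 CPM in the 3 Krt5-Cre libraries without a count.

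The one comparison that the column numbers allow sets the 4 Krt5-Cre libraries against the 19 lentiviral libraries. Virus, Cre promoter, strain background and guide differ together between these groups and cannot be told apart. By edgeR's quasi-likelihood test with Benjamini-Hochberg adjustment over all 16922 genes tested, 24% of genes passed an adjusted p of 0.05, 14.4% as higher and 9.54% as lower in Krt5-Cre libraries. Of the 12 Hox genes that passed the filter on low counts, 0 passed that threshold and 0 had an unadjusted p under 0.05, which 35.9% of all tested genes had. The median log2 difference of the 12 was -0.24, with 4 above 0, against 0.06 over all tested genes. The other 27 Hox genes were too low to be tested.

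The intervals of the differences were wide. Hoxb4 had a log2 difference of 0.80 (95% interval -0.41 to 2.02, edgeR adjusted p 0.341), and Hoxb3 had 0.46 (-0.85 to 1.78, edgeR adjusted p 0.639). For Hoxd8 the log2 difference was 1.04 (-0.69 to 2.77, edgeR adjusted p 0.395), and it was -0.44 without library 22. Among HoxC genes, Hoxc5 had -0.98 (-3.12 to 1.17, edgeR adjusted p 0.532), Hoxc4 had -0.81 (-3.27 to 1.65, edgeR adjusted p 0.664) and Hoxc13 had -0.39 (-2.75 to 1.96, edgeR adjusted p 0.839). The other 6 (Hoxb2, Hoxb7, Hoxb9, Hoxc6, Hoxc8 and Hoxc10) lay between -0.63 and 0.70. Hoxc10 was among them at -0.47, and at -4.25 without library 20, which held nearly all of its Krt5-Cre counts. Each of the 12 intervals took in a 2-fold difference on at least 1 side, so the test does not show that the levels were alike.

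**Figure D5:**
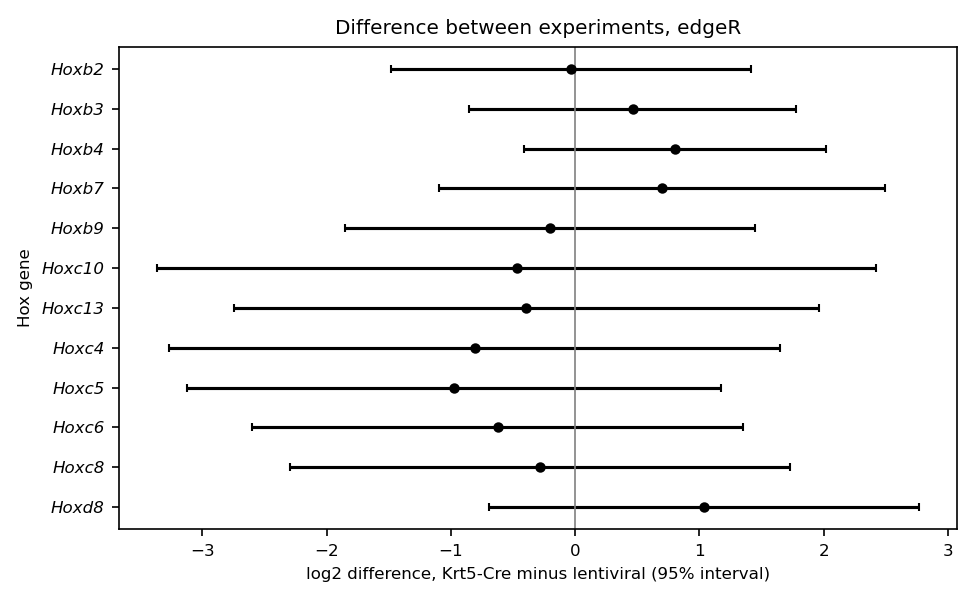
Points are log2 differences, Krt5-Cre minus lentiviral, with 95% intervals, from edgeR for the 12 Hox genes tested (4 against 19 libraries). The interval of every gene spans 0, and Hoxd8 and Hoxb4 have the highest points.

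The outcome for low genes depended on the test. DESeq2's Wald test took in 25 Hox genes and called 2 higher in Krt5-Cre libraries, beside 25.6% of all genes it tested. These were Hoxb6 (log2 difference 1.68, DESeq2 adjusted p 0.0418) and Hoxd4 (4.07, DESeq2 adjusted p 0.0262). With no filter on low counts, edgeR tested 36 and called Hoxd4 (3.67, adjusted p 0.00215) and Hoxd10 (2.84, adjusted p 0.0418) higher, beside 16.9% of all genes called. Without library 25 edgeR tested 16 and called 2, beside 26.2% of all genes: Hoxb6 (1.95, adjusted p 0.0151) and Hoxd9 (3.09, adjusted p 0.0265), both higher. All 4 of these genes had their highest Krt5-Cre value in library 22, where Hoxd4 had 0.850 CPM, against at most 0.0947 CPM in the other Krt5-Cre libraries. Hoxd4 had 21 counts over all 25 libraries, 11 of them in library 22. Of its exonic bases, 52.3% are shared with other genes, so its level is uncertain.

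Genes for the proteins that bind DNA with Hox proteins were detected in every group. The list held 9 genes of the Pbx, Meis and Pknox families. Of the 8 members tested, 1 rose in Krt5-Cre libraries and 0 fell (edgeR, adjusted p under 0.05), beside 14.4% and 9.54% of all genes tested, so the share was near that of all genes, and the median log2 difference was 0.30. The member that rose was Meis3, with a log2 difference of 1.68 ± 0.31 (SE; edgeR adjusted p 0.000376), and of 1.06 ± 0.31 without library 21 (edgeR adjusted p 0.0222). Meis3 had 15.2, 34.2, 27.1 and 7.12 CPM in Krt5-Cre libraries 20, 21, 22 and 25, against a lentiviral median of 7.12 and maximum of 15.1 CPM. The Kdm6a fl/fl libraries had 4.78 and 7.28 CPM of Meis3, close to the lentiviral median and to library 25.

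Several chromatin regulators of the Hox clusters differed between the groups. Of 27 Polycomb and Trithorax genes, all tested, 14 rose and 3 fell in Krt5-Cre libraries (edgeR, adjusted p under 0.05), beside 14.4% and 9.54% of all genes, with a median log2 difference of 0.29. Without library 21 the counts were 9 and 2, beside 9.28% and 8.08% of all genes. The genes that rose included the H3K4 methyltransferase genes Kmt2d (1.35 ± 0.18 SE, edgeR adjusted p 1.37e-05), Kmt2a (1.12 ± 0.16) and Kmt2c (0.99 ± 0.19), the H3K27 demethylase genes Kdm6b (1.85 ± 0.33) and Kdm6a (0.71 ± 0.18), and the Polycomb genes Rnf2 (0.85 ± 0.17) and Bmi1 (0.65 ± 0.19), all as log2 differences. Those that fell were Men1 (-0.62 ± 0.17), Phc2 (-0.55 ± 0.18) and Wdr5 (-0.42 ± 0.12). Ezh2, the main H3K27 methyltransferase gene, had 0.01 ± 0.25 (edgeR adjusted p 0.981). Kmt2d had 148 and 146 CPM in Kdm6a fl/fl libraries and 376, 183, 396 and 192 CPM in Krt5-Cre libraries 20, 21, 22 and 25, against a lentiviral median of 103 and maximum of 191 CPM. Kdm6b had 324 and 322 CPM in Kdm6a fl/fl libraries and 304, 1263, 173 and 253 CPM in Krt5-Cre libraries, against a lentiviral median of 162 CPM, so library 21 held its highest value. Without library 21 the log2 difference of Kdm6b was 0.47 ± 0.22 (SE; edgeR adjusted p 0.154) and that of Kdm6a 0.41 ± 0.18 (edgeR adjusted p 0.120), and neither passed. Men1 did not pass without library 21 either (edgeR adjusted p 0.0597), and Rnf2 passed there at 0.52 ± 0.16 (edgeR adjusted p 0.0305). Bmi1 did not pass without library 25 (edgeR adjusted p 0.171), Phc2 did not pass without library 20 (edgeR adjusted p 0.0940) or 22 (edgeR adjusted p 0.124), and Wdr5 did not pass without library 22 (edgeR adjusted p 0.0614). Guides against Asxl2, Kdm6a and Kmt2c were used in some lentiviral tumours, and which libraries these were is not known here.

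Non-coding transcripts of the clusters were scarce. Of 18 names listed, 16 were in the tables and 1, Hoxb3os, passed the filter on low counts. Hoxb3os had 1.03 and 1.37 CPM in Kdm6a fl/fl libraries and 2.08, 0.284, 2.78 and 1.38 CPM in Krt5-Cre libraries, against a lentiviral median of 0.723 and maximum of 2.15 CPM, with a log2 difference of 1.10 ± 0.63 (SE; edgeR adjusted p 0.214). Like Hoxb3 and Hoxb2, it was low in library 21. Hottip, Hoxa11os, Mir10b, Mir196a-2, Mir196b and Mir615 had no count in any library, and Hotair, transcribed from the HoxC cluster, reached at most 0.136 CPM. The size selection of the libraries is not stated, and a count of 0 for a microRNA gene does not measure the mature microRNA.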

How the data were processed

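The authors deposited raw counts per gene symbol, without normalization, in 2 tables of 23 and 2 libraries. Per the submitters' processing notes, the tools were HISAT2 2.1.0, featureCounts and DESeq2 and the build was mm10 (GRCm38). Which annotation was counted, whether strand was used and how shared reads were treated is not given in the sources used here. Counts of overlapping or antisense genes are therefore uncertain. Totals were 7733478 to 43673097 counts, which sets the limit of a count of 0 at 0.0687 to 0.388 CPM. CPM was taken from the library total and TPM from the exon union of GENCODE M21 on GRCm38. Columns were grouped by the design text, never by record order, and 0 columns were left unused.

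Krt5-Cre and lentiviral libraries were compared with edgeR 4.0.16 (R 4.3.3), with TMM scaling, filterByExpr, the quasi-likelihood test and Benjamini-Hochberg adjustment over all tested genes, and the fit was tested on simulated data. Each SE is the absolute log2 difference divided by the square root of the test's F value. The 95% intervals were built from it, symmetric around the difference, so SEs and intervals are approximate. Alternatives were RLE size factors, DESeq2 1.42.0, no filter, the second table added, libraries left out, thinning, TPM and TMM scaling of levels. The rule for named genes took the 12 highest by median CPM, every gene called and the 5 widest in lentiviral libraries, all 5 among the 12. Members and lists were chosen with earlier results of these data known. Python 3.11.15 with pandas 2.3.3 was used for levels.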

Additional observations from a re-analysis of the deposited data

Results flagged for a closer look

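Among 20 values checked in the 4 Krt5-Cre libraries, 7 had a single library far from the others by Dixon's criterion. It was library 22 each time. Hoxd4, Hoxd9 and Hoxd10 were put among the 20 after results of these data were seen. All 3 are among the 7, as is the HoxD sum that contains them, so the 7 of 20 is not an unbiased tally. The criterion's rate of about 1 in 20 holds for normally distributed values. It does not hold for low CPM values, some of them 0, or for genes picked after results were seen. The 7 values also share a library, so they are not independent. Hoxd8 had 7.11 CPM in library 22, against at most 0.947 CPM in the other 3 libraries. Hoxd9 had 6.95 CPM, against at most 0.406 CPM. Hoxd10 had 2.55 CPM, with no count in the others, and Hoxd4 had 0.850 CPM, against at most 0.0947 CPM. The summed HoxD level was 17.6 CPM, against at most 1.37 CPM. Outside HoxD, Hoxb6 had 2.39 CPM, against at most 0.332 CPM, and Hoxc6 had 2.24 CPM, against at most 0.587 CPM. Library 22 also had the highest summed endothelial markers of the 4, 337 CPM, and the part of the cells that held this RNA was not tested.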

How the results depend on the processing

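The number of Hox genes called was 0 in the main edgeR fit, and 2 under DESeq2 and 2 with no filter on low counts. It ranged from 0 to 2 when each Krt5-Cre library was left out, with 2 only without library 25, and it was 0 under RLE scaling, with the second table added, and in the added settings without library 13, 15, 18 or both 13 and 21. Of 142 log2 differences of the 12 tested genes under other settings, 128 kept their direction and side of the threshold and 14 changed direction, none of them called. Hoxb2, at -0.04, became 0.028 under RLE, 0.029 under DESeq2, 0.28 with the second table added, 0.22 without libraries 13 and 21 and 0.054 without library 18, and ran from -0.49 to 0.34 over libraries left out. Hoxb9 became 0.17 with the second table added and 0.048 without libraries 13 and 21, and ran from -1.17 to 0.17. Hoxb7 became -0.058 without libraries 13 and 21. Hoxc10, at -0.47, became 0.94 under DESeq2, which gave it no p-value and so could not call it. Over libraries left out, Hoxc10 ran from -4.25 (without library 20) to -0.081. Hoxc13 became 0.14 without library 18 and ran from -1.12 to 0.016. Hoxd8 ran from -0.44 (without library 22) to 1.43. The cause was not tested. Summing TPM in place of CPM moved the Kdm6a fl/fl median shares to 1.91% for HoxA, 77.9% for HoxB, 16.5% for HoxC and 3.73% for HoxD, by design, since TPM divides by length. The count of genes called over all genes, 4057, ran from 2891 to 4565 over Krt5-Cre libraries left out and from 3590 to 5938 under the other settings, with 5143 without library 13. No paired analysis was possible because the count columns carry no replicate number. Libraries 13, 15, 18 and both 13 and 21 were left out after the data were seen. Depth limits the low genes: a count of 0 allows 0.0687 to 0.388 CPM, and 21 of the 39 genes never reached 1 CPM. The number that reached 1 CPM in at least 1 library was 18, against 17 with TMM scaling and 19 after thinning. At 0.5 CPM it was 24.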
